A study of Homo sapiens with 24 samples.

Results

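RNA levels of 2 human cell lines were compared at baseline, in the wells of a GCDH knockdown study that had received only control siRNA. The tested line was SK-Hep1, labelled as liver, with 3 siControl libraries, and the line it was set against was labelled SKBR3, breast, also with 3 siControl libraries. These were 6 of the 24 libraries of the series, which also holds A375 melanoma cells and wells given siRNA against GCDH (siGCDH). Cells of both lines were collected 48 hours after transfection, so the control siRNA and the transfection itself were common to all 6 libraries, and no other treatment or genetic change is labelled. The 6 libraries were made with the same poly(A) selection and directional kit and read single-end over 75 bases. Genes were kept where their mean over the 6 libraries was at least 1 TPM (a measure of transcript abundance that corrects for transcript length and sums to the same total in every library), which left 15477 of 60504 rows.

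An established cell line keeps part of the gene programme of the tissue it came from, and that programme is read from lineage factors, structural proteins such as keratins, and surface receptors. SK-Hep1 came from a liver tumour but is known for lacking hepatocyte functions, and SKBR3, derived from a breast carcinoma, is known for ERBB2 (HER2) amplification and for luminal keratins. The product of GCDH, glutaryl-CoA dehydrogenase, works in mitochondria on the breakdown of lysine and tryptophan, and the title of the series ties its loss to the transcription factor NRF2. The baseline comparison shows what each set of wells expressed before GCDH was targeted.

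Wells were seeded in triplicate and no label gives separate cultures, so p-values measure the spread between wells of a line, which may be technical. Between 14152 and 14195 genes reached 1 TPM in the SK-Hep1 libraries and between 15140 and 15181 in the SKBR3-labelled libraries. Sequencing depth cannot be read from TPM and is unknown, so no counting interval is given. Pearson correlations of log2(TPM + 1) over the tested genes ran from 0.981 to 0.984 among the SK-Hep1 libraries, from 0.982 to 0.983 among the SKBR3-labelled libraries and from 0.728 to 0.733 over the 9 pairs between the lines. With A375 libraries of the same kit, SK-Hep1 libraries correlated at 0.837 to 0.839 and SKBR3-labelled libraries at 0.815 to 0.817. The tested genes were chosen without A375, so genes expressed only there were left out. The ranges with A375 are therefore not a like comparison with the range between the lines. These correlations are across genes, which are not independent replicates. Mitochondrially encoded transcripts took 5.62% to 6.33% of all TPM in SK-Hep1 and 1.99% to 2.12% in the SKBR3-labelled libraries, and the part of this share in the other results was not tested.

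The labels were first set against defining markers. ERBB2, the receptor tyrosine kinase amplified in SKBR3, had 48.6, 50.0 and 40.5 TPM in the SK-Hep1 libraries, against 24.8, 23.7 and 28.01 TPM in the SKBR3-labelled libraries (0.83, SE 0.10, adjusted p = 0.000183, on the log2(TPM + 1) scale). It was higher in every SK-Hep1 library than in any SKBR3-labelled library, and the same absence of overlap held, in one direction or the other, for every called gene whose values are given by library. Absence of overlap was common, in 12515 of 15477 tested genes (80.9%) and 12128 of 12277 called genes, so it sets no single gene apart. GRB7, an adaptor gene that lies beside ERBB2 and is usually amplified with it, had 3.6, 2.35 and 2.68 TPM in the SK-Hep1 libraries, against 0.27, 0.61 and 0.66 TPM in the SKBR3-labelled libraries. MIEN1, another neighbour of ERBB2, averaged 81.5 ± 5.13 TPM in SK-Hep1 and 81.7 ± 2.66 TPM in the SKBR3-labelled libraries and did not pass the test (adjusted p = 0.951). Of 30 genes listed for the HER2 amplicon and luminal breast, 13 were tested, 9 of them were higher and 2 lower in SK-Hep1, and 11 were listed at 0 in all SK-Hep1 libraries and likewise 11 in all SKBR3-labelled libraries. The luminal factor GATA3 had 52.8, 57.8 and 55.3 TPM in the SK-Hep1 libraries, against 7.86, 8.9 and 6.55 TPM in the SKBR3-labelled libraries. The epithelial factor ELF3 had 53.03, 51.2 and 53.4 TPM in the SK-Hep1 libraries, against 0.06, 0 and 0 TPM in the SKBR3-labelled libraries. CRABP2, a retinoic acid carrier, was the member that ran furthest the other way and had 1.93, 2.2 and 2.74 TPM in the SK-Hep1 libraries, against 56.4, 49.4 and 53.98 TPM in the SKBR3-labelled libraries. ERBB2 and keratin levels went against the SKBR3 label, and these libraries are called by their label alone.

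Keratins, the intermediate filaments of epithelial cells, had the largest median difference of the 39 gene lists. Of 9 tested keratin genes, 8 were higher in SK-Hep1, none was lower and the median difference was 5.48 on the log2(TPM + 1) scale. KRT8 had 2379.9, 2309.95 and 2262 TPM in the SK-Hep1 libraries, against 9.34, 9.38 and 8.48 TPM in the SKBR3-labelled libraries. Its partner KRT18 had 2746, 2680.2 and 2636 TPM in the SK-Hep1 libraries, against 20.2, 19 and 19.2 TPM in the SKBR3-labelled libraries. KRT19, a keratin of simple epithelia, had 1276, 1265 and 1245 TPM in the SK-Hep1 libraries, against 0.68, 0 and 0 TPM in the SKBR3-labelled libraries. All 3 genes exceeded 1200 TPM in each SK-Hep1 library and were below 21 TPM in each SKBR3-labelled library. KRT10, of the suprabasal epidermis, averaged 13.8 ± 0.61 TPM in SK-Hep1 and 12.6 ± 0.90 TPM in the SKBR3-labelled libraries and did not pass (adjusted p = 0.213), though it passed after median scaling or quantile normalization. The summed level of the 20 listed keratins was 6358 to 6639 TPM in SK-Hep1 and 40.4 to 43.8 TPM in the SKBR3-labelled libraries, with no overlap. As bulk values, these do not tell fewer cells of a type from less RNA per cell.

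SK-Hep1 was also set against markers of its labelled tissue and of other cell types. ALB (albumin), the hepatocyte factor HNF4A and the endothelial adhesion gene PECAM1 were listed at 0 in all 3 SK-Hep1 libraries, and the endothelial cadherin CDH5 had at most 0.08 TPM there. The epithelial cadherin CDH1 was listed at 0 in all 3 SK-Hep1 libraries, against 2.89, 2.58 and 2.01 TPM in the SKBR3-labelled libraries. EPCAM, an epithelial adhesion molecule, had 6.71, 9.14 and 10.3 TPM in the SK-Hep1 libraries, against 2.42, 1.28 and 2 TPM in the SKBR3-labelled libraries. Of 32 hepatocyte genes only 7 were tested, 2 higher and 4 lower in SK-Hep1. Over all tested genes 28.9% were higher and 50.5% lower, which is near these shares. The summed level of the hepatocyte list was 25.9 to 29.2 TPM in SK-Hep1 and 82.7 to 83.5 TPM in the SKBR3-labelled libraries. The glypican GPC3 alone averaged 51.6 TPM in the SKBR3-labelled libraries. SERPINA1, a secreted protease inhibitor, had 9.51, 8.4 and 10.9 TPM in the SK-Hep1 libraries and was listed at 0 in all 3 SKBR3-labelled libraries, whereas CEBPA, a liver and fat cell factor, averaged 1.3 TPM in SK-Hep1 and 8.45 TPM in the SKBR3-labelled libraries. Of 32 endothelial genes 8 were tested, 4 higher and 2 lower, against the same 28.9% and 50.5% over all tested genes. FLI1, a factor of endothelial and blood cells, averaged 6.88 TPM in SK-Hep1 and 0.03 TPM in the SKBR3-labelled libraries. FLT4, a vascular endothelial growth factor receptor, averaged 0.60 TPM in SK-Hep1 and 24.9 TPM in the SKBR3-labelled libraries. The leukocyte marker PTPRC stayed under 0.4 TPM in all 6 libraries. SOX10, a factor of neural crest and melanocytes, was listed at 0 in all 6 libraries and averaged 457 TPM in A375 libraries of the same kit.

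**Figure D1:**
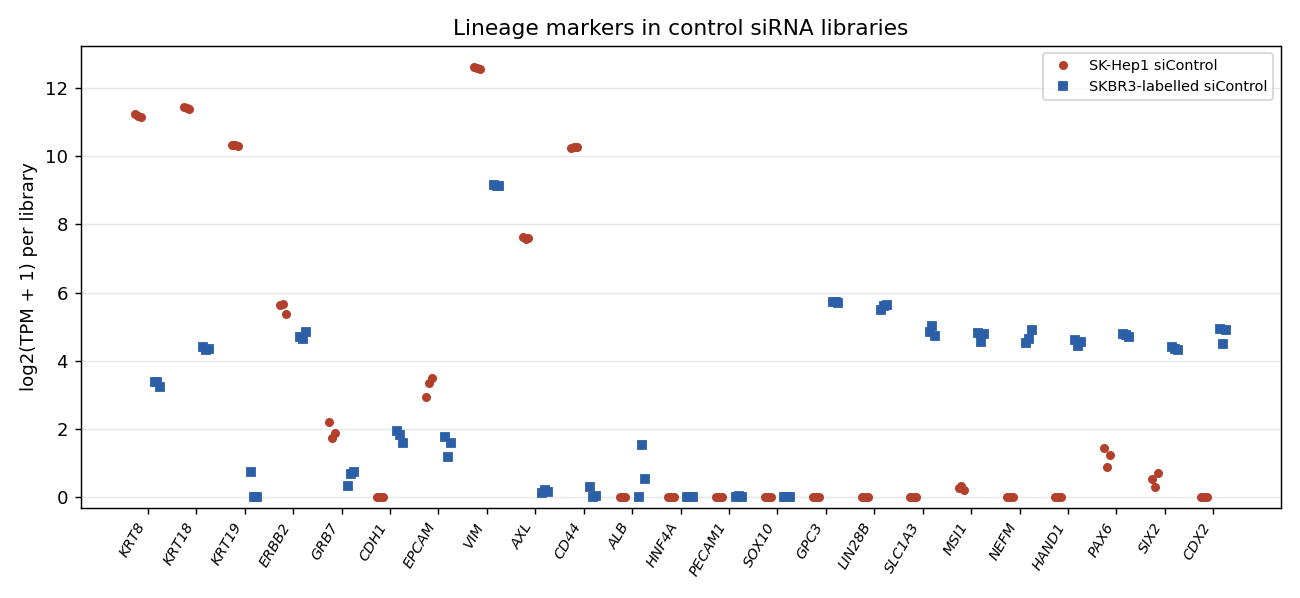
Level of 23 lineage markers in each of the 6 control siRNA libraries, as log2(TPM + 1) on the vertical axis, with SK-Hep1 as circles left of the SKBR3-labelled squares for each gene. Keratin, VIM, AXL and CD44 circles sit above the squares, ALB, HNF4A, PECAM1 and SOX10 circles sit at 0 with squares at or near 0 except for ALB, and the squares of GPC3 through CDX2 sit well above the circles.

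The lines differed over most of the transcriptome. limma with Benjamini-Hochberg adjustment (adjusted p under 0.05) called 12277 of 15477 tested genes, 79.3%, with 4467 (28.9%) higher and 7810 (50.5%) lower in SK-Hep1. Calls with at least a 2-fold difference on the log2(TPM + 1) scale numbered 6366 (41.1%), of which 2421 (15.6%) were higher and 3945 (25.5%) lower. At 8-fold there were 1010 (6.53%), 641 (4.14%) higher and 369 (2.38%) lower. This excess of higher genes turned with a pseudocount of 0.1, which gave 1090 higher and 1145 lower. The median difference of all tested genes was -0.34, or -0.21 after median scaling and -0.17 after quantile normalization, and the called genes that were higher in SK-Hep1 made up 36.4%, 41.2% and 42.8% under these 3 scalings. Because so many genes passed, a call says little for a single gene, and counts within a gene list are read against 28.9% and 50.5%. The filter used these same 6 libraries. A gene near 0 in one line entered the test only through its level in the other, so its direction followed from the filter. This limits the counts of lists that were mostly silent in one line. The pseudocount of 1 understates differences of low genes.

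The widest differences were in genes that were abundant in one line and close to 0 in the other. S100A6, a small calcium-binding protein, had 1918, 1789.7 and 1723 TPM in the SK-Hep1 libraries, against 0.27, 0 and 0 TPM in the SKBR3-labelled libraries (10.71, SE 0.10, adjusted p = 1.73e-09). CD44, the receptor for hyaluronan, had 1209, 1237 and 1230.03 TPM in the SK-Hep1 libraries, against 0.23, 0 and 0.03 TPM in the SKBR3-labelled libraries (10.15, SE 0.09, adjusted p = 1.04e-09). SRGN, a proteoglycan of secretory granules, averaged 1109 ± 47.4 TPM in SK-Hep1 and 0.22 ± 0.07 TPM in the SKBR3-labelled libraries. ANPEP, a cell surface aminopeptidase, averaged 771 ± 20.6 TPM in SK-Hep1 and 0.53 ± 0.38 TPM in the SKBR3-labelled libraries. All 4 genes were abundant in each SK-Hep1 library and below 1 TPM in each SKBR3-labelled library. TM4SF1 (a membrane protein), TGM2 (a protein cross-linking enzyme), IGFBP3 (an insulin-like growth factor carrier) and NNMT (nicotinamide N-methyltransferase) averaged 574, 779.5, 527 and 537 TPM in SK-Hep1 and stayed below 2 TPM in every SKBR3-labelled library. The long non-coding RNA LINC02154 had 430.1, 425 and 431 TPM in the SK-Hep1 libraries, against 0.51, 0.25 and 0.18 TPM in the SKBR3-labelled libraries.

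In the other direction, CDKN2A, which encodes the cell cycle inhibitors p16 and ARF, was listed at 0 in all 3 SK-Hep1 libraries, against 381, 371 and 359 TPM in the SKBR3-labelled libraries. IRS4, an insulin receptor substrate, was listed at 0 in all 3 SK-Hep1 libraries, against 303, 301 and 299.6 TPM in the SKBR3-labelled libraries. PSAT1, an enzyme of serine synthesis, had 0.09, 0.09 and 0 TPM in the SK-Hep1 libraries, against 359, 381 and 369 TPM in the SKBR3-labelled libraries (-8.45, SE 0.07, adjusted p = 8.93e-10). PRDX2, a peroxiredoxin that removes hydrogen peroxide, had 0, 0.40 and 0.38 TPM in the SK-Hep1 libraries, against 389, 392 and 392 TPM in the SKBR3-labelled libraries (-8.30, SE 0.13, adjusted p = 1.21e-08). CA2, a carbonic anhydrase, averaged 0.87 TPM in SK-Hep1 and 302 TPM in the SKBR3-labelled libraries. AMOT, a Hippo pathway scaffold, averaged 0.15 TPM in SK-Hep1 and 186 TPM in the SKBR3-labelled libraries. CYBA, a subunit of NADPH oxidase, was listed at 0 in SK-Hep1 and averaged 128 TPM in the SKBR3-labelled libraries. ALDH2, mitochondrial aldehyde dehydrogenase, had 0.24, 0.01 and 0 TPM in the SK-Hep1 libraries, against 83.3, 80.5 and 76.5 TPM in the SKBR3-labelled libraries. CKMT1B, a mitochondrial creatine kinase, was listed at 0 in SK-Hep1, against 64.95 TPM in the SKBR3-labelled libraries, but shares reads with its near-identical copy CKMT1A and is uncertain.

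A stricter switch was counted as at least 20 TPM in all 3 libraries of one line and below 0.5 TPM in all 3 of the other. By that measure 137 genes were on in SK-Hep1 and off in the SKBR3-labelled libraries, 123 of them protein-coding, and 55 genes, 48 of them protein-coding, were on in the SKBR3-labelled libraries and off in SK-Hep1.

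**Figure D2:**
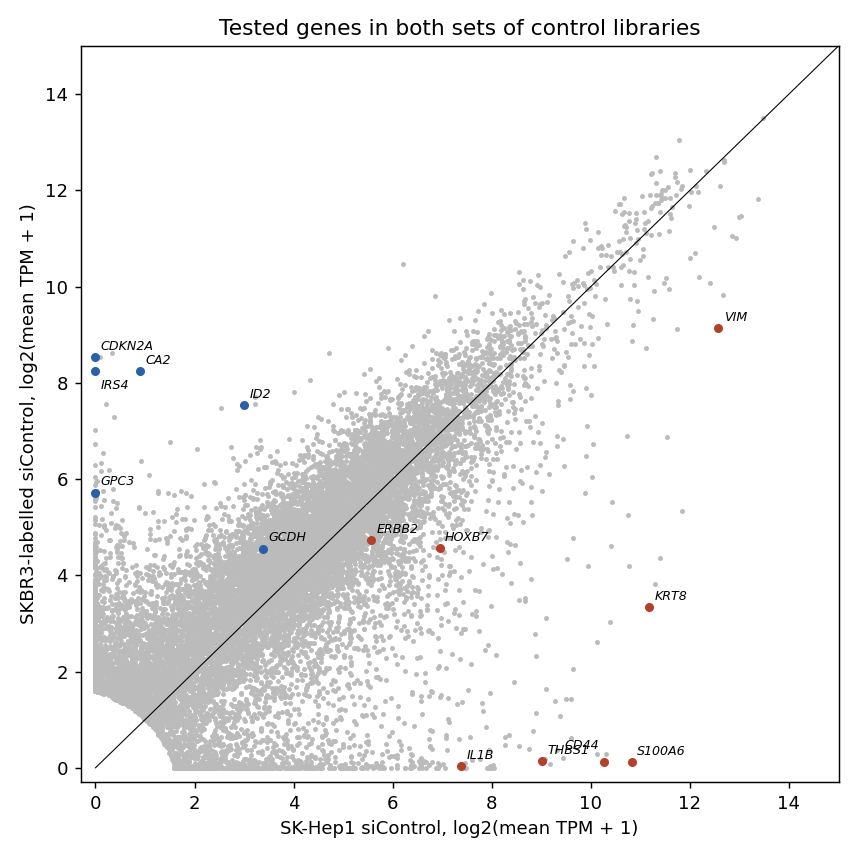
Mean level of the tested genes, as log2(mean TPM + 1), in SK-Hep1 (horizontal axis) and in the SKBR3-labelled libraries (vertical axis), with the line of equal levels. Points along both axes are genes at or near 0 in one line. S100A6, CD44 and THBS1 lie along the lower right and CDKN2A, IRS4 and CA2 along the upper left.

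The siGCDH wells of both lines, libraries that did not enter the comparison above, gave the same difference between lines for nearly all of the wide gaps. Of 17136 genes tested there 13751 were called, 4301 higher and 9450 lower in SK-Hep1. Of 12103 genes called in siControl wells and tested in siGCDH wells, 10322 (85.3%) were called the same way and 334 the opposite way. Of 1005 that were also at least 8-fold apart, 1002 were called the same way and 0 the opposite way. CD44 averaged 1305 TPM in SK-Hep1 and 0.16 TPM in the SKBR3-labelled libraries with siGCDH, and CDKN2A was listed at 0 in SK-Hep1 and averaged 389.5 TPM in the SKBR3-labelled libraries. KRT8 kept its direction with a smaller gap, at 949 TPM in SK-Hep1 and 10.6 TPM in the SKBR3-labelled libraries.

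Gene lists, chosen with earlier results of these data known, are described by their counts of called members and by the median difference, beside -0.34 for all tested genes. The lists furthest above that value were keratins (5.48), cytokines and chemokines (4.26), interferon-stimulated genes (3.10) and antigen presentation (2.91). The lists furthest below were glial and neural progenitor (-2.72), kidney and urogenital (-2.34), epithelial transcription and splicing regulators (-1.57, 3 tested genes) and, close together, genes of gut, lung, prostate, thyroid and pancreas (-1.49, 6 tested genes) and neuronal and neuroendocrine genes (-1.48). The cartilage and bone list was at -0.00022 and its sign turned with the scaling. The cancer-testis list had only 3 tested genes, 1 higher and 1 lower in SK-Hep1, among them PRAME, which averaged 84.9 TPM in SK-Hep1 and 25.2 TPM in the SKBR3-labelled libraries. GAGE13, a cancer-testis gene outside the list, averaged 262 TPM in SK-Hep1 and was listed at 0 in all 3 SKBR3-labelled libraries. Reads cannot tell it from its near-identical copies.

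**Figure D3:**
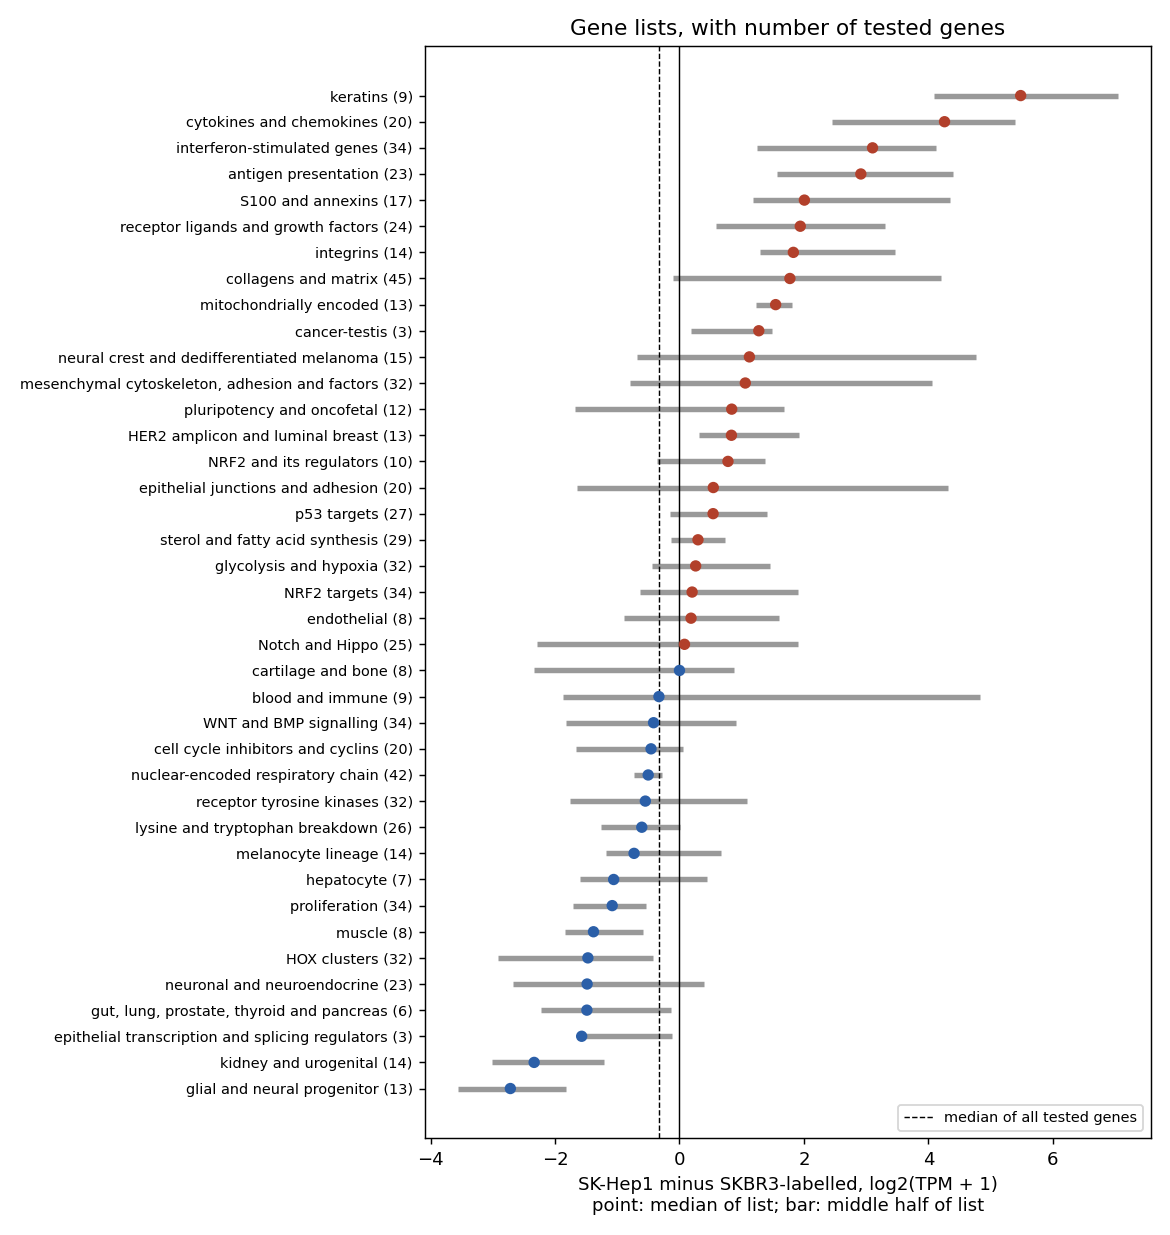
Difference of each of the 39 gene lists, SK-Hep1 minus SKBR3-labelled, on the log2(TPM + 1) scale, with the median as a point, the interquartile range of the tested genes as a bar, and the number of tested genes in brackets. The dashed line is the median of all tested genes, -0.34, and the lists run from keratins at 5.48 down to glial and neural progenitor genes at -2.72.

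Genes of epithelial junctions went in both directions. Of 20 tested genes of epithelial junctions and adhesion, 11 were higher and 8 lower in SK-Hep1, against 28.9% and 50.5% of all tested genes. ITGB4, the integrin beta subunit of hemidesmosomes, had 226, 229 and 226 TPM in the SK-Hep1 libraries, against 2.52, 0.71 and 0.52 TPM in the SKBR3-labelled libraries. LAMB3, a chain of laminin-332, had 55.8, 59.2 and 52.3 TPM in the SK-Hep1 libraries and was listed at 0 in all 3 SKBR3-labelled libraries. The claudin CLDN7 averaged 96.02 TPM in SK-Hep1 and 1.18 TPM in the SKBR3-labelled libraries. The desmosomal cadherin DSG2 went the other way and had 31.8, 30.03 and 32.8 TPM in the SK-Hep1 libraries, against 98.95, 105 and 99.4 TPM in the SKBR3-labelled libraries, as did SPINT2, an inhibitor of membrane serine proteases, at 2.797 TPM in SK-Hep1 and 49.1 TPM in the SKBR3-labelled libraries. Only 3 of 13 epithelial transcription and splicing regulators were tested, of which TFAP2A was higher in SK-Hep1 (86.8 TPM in SK-Hep1 and 33.96 TPM in the SKBR3-labelled libraries). The other two were lower, KLF5 at 3.497 TPM in SK-Hep1 and 13.9 TPM in the SKBR3-labelled libraries and GRHL1 at 0.54 TPM in SK-Hep1 and 3.75 TPM in the SKBR3-labelled libraries.

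Genes of mesenchymal cells divided between the lines. VIM, the intermediate filament vimentin of mesenchymal cells, had 6167, 6088 and 6002 TPM in the SK-Hep1 libraries, against 572, 557 and 560.2 TPM in the SKBR3-labelled libraries (3.43, SE 0.02, adjusted p = 5.62e-10). The membrane scaffold CAV1 averaged 1109 TPM in SK-Hep1 and 5.14 TPM in the SKBR3-labelled libraries. The galectin LGALS1 averaged 2527 TPM in SK-Hep1 and 13.2 TPM in the SKBR3-labelled libraries. Of 32 tested mesenchymal genes, 17 were higher and 13 lower. The neural cadherin CDH2 averaged 23.5 TPM in SK-Hep1 and 26.7 TPM in the SKBR3-labelled libraries and did not pass (adjusted p = 0.0754), and it passed without SK-Hep1 replicate 3. FOXC1, a mesenchymal transcription factor, averaged 6.46 TPM in SK-Hep1 and 75.7 TPM in the SKBR3-labelled libraries. The actin-binding gene CALD1 averaged 26.6 TPM in SK-Hep1 and 52.7 TPM in the SKBR3-labelled libraries. Of 17 tested S100 and annexin genes 15 were higher and none lower, among them ANXA1, a phospholipid-binding protein (1342 TPM in SK-Hep1 and 7.203 TPM in the SKBR3-labelled libraries).

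Of 45 tested collagen and matrix genes, 33 were higher and 10 lower in SK-Hep1, with a median of 1.77. The adhesive glycoprotein THBS1 had 527, 505 and 517 TPM in the SK-Hep1 libraries, against 0.27, 0.01 and 0.02 TPM in the SKBR3-labelled libraries. PLAU, an activator of plasminogen, had 634, 619.7 and 609 TPM in the SK-Hep1 libraries, against 1.8, 1.59 and 1.46 TPM in the SKBR3-labelled libraries. Fibronectin, FN1, averaged 376 TPM in SK-Hep1 and 10.2 TPM in the SKBR3-labelled libraries. The matrix protein SPARC averaged 1723 TPM in SK-Hep1 and 36.9 TPM in the SKBR3-labelled libraries. The members that ran the other way included FBLN1, a fibulin (16.98 TPM in SK-Hep1 and 47.3 TPM in the SKBR3-labelled libraries), and COL6A1, a collagen VI chain (15.8 TPM in SK-Hep1 and 37.1 TPM in the SKBR3-labelled libraries). Of 14 tested integrins 12 were higher and 2 lower, among them ITGA3, a laminin receptor subunit, at 475 TPM in SK-Hep1 and 3.997 TPM in the SKBR3-labelled libraries.

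Ligands and receptors for growth factors divided between the lines. Of 24 tested ligands 19 were higher and 3 lower in SK-Hep1. NRG1, the neuregulin that binds ERBB3 and ERBB4, had 185, 173 and 170.4 TPM in the SK-Hep1 libraries and was listed at 0 in all 3 SKBR3-labelled libraries. EREG, a ligand of EGFR, had 200.1, 210.0 and 241 TPM in the SK-Hep1 libraries, against 0.36, 0 and 0.03 TPM in the SKBR3-labelled libraries. Among 32 tested receptor tyrosine kinases, 11 were higher and 18 lower, and these shares (28.9% and 50.5% over all tested genes) were near the background. The receptor AXL had 195, 189 and 192 TPM in the SK-Hep1 libraries, against 0.09, 0.16 and 0.11 TPM in the SKBR3-labelled libraries. EGFR and ERBB3 were also higher, EGFR at 49.4 TPM in SK-Hep1 and 5.197 TPM in the SKBR3-labelled libraries and ERBB3 at 36.1 TPM in SK-Hep1 and 4.64 TPM in the SKBR3-labelled libraries, whereas ERBB4 was below the filter and not tested (0.93 TPM in SK-Hep1 and 0.42 TPM in the SKBR3-labelled libraries). The fibroblast growth factor receptors FGFR3 and FGFR2 ran the other way. FGFR3 had 0, 0.24 and 0.15 TPM in the SK-Hep1 libraries, against 31.9, 35.4 and 28.3 TPM in the SKBR3-labelled libraries. FGFR2 was listed at 0 in all 3 SK-Hep1 libraries, against 19.9, 21.6 and 20.2 TPM in the SKBR3-labelled libraries. The pseudokinase PTK7 averaged 4.303 TPM in SK-Hep1 and 59.4 TPM in the SKBR3-labelled libraries.

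Cytokine and chemokine RNAs were present in SK-Hep1 and mostly near 0 in the SKBR3-labelled libraries. Of 20 tested cytokine and chemokine genes 19 were higher in SK-Hep1 and none was lower. Only 2 of the 32 listed genes reached 1 TPM in every SKBR3-labelled library, against 20 in every SK-Hep1 library. The filter on the 6-library mean thus favoured this direction, and the count of tested genes is not separate support for it. IL1B, interleukin 1 beta, had 166, 162 and 167 TPM in the SK-Hep1 libraries, against 0.07, 0 and 0 TPM in the SKBR3-labelled libraries (7.34, SE 0.07, adjusted p = 1.57e-09). IL18 averaged 161 TPM in SK-Hep1 and 0.51 TPM in the SKBR3-labelled libraries. A run of 5 chemokine genes on chromosome 4, from CXCL8 to CXCL2 (positions 73740506 to 74099293), was below 1 TPM in all 3 SKBR3-labelled libraries. They were neighbours among the tested coding genes. Of these CXCL1 had 129, 133 and 143 TPM in the SK-Hep1 libraries, against 0.53, 0.11 and 0.25 TPM in the SKBR3-labelled libraries. CXCL8, which attracts neutrophils, had 62.5, 62.6 and 75.9 TPM in the SK-Hep1 libraries, against 0.17, 0.13 and 0.15 TPM in the SKBR3-labelled libraries. Both chemokines were high in every SK-Hep1 library and below 1 TPM in every SKBR3-labelled library. With siGCDH CXCL8 averaged 38.3 TPM in SK-Hep1 and 0.35 TPM in the SKBR3-labelled libraries.

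Antigen presentation followed the same direction, with 22 of 23 tested genes higher in SK-Hep1 and none lower. The class II invariant chain CD74 had 609.5, 667 and 645 TPM in the SK-Hep1 libraries, against 0.31, 0.30 and 0.25 TPM in the SKBR3-labelled libraries (8.96, SE 0.06, adjusted p = 5.42e-10). HLA-DRA, a class II chain, had 312, 305 and 306 TPM in the SK-Hep1 libraries, against 0.30, 0.39 and 0.46 TPM in the SKBR3-labelled libraries. CIITA, the activator of class II genes, averaged 12.6 TPM in SK-Hep1 and 0.16 TPM in the SKBR3-labelled libraries. PSMB8, a subunit of the immunoproteasome, had 108, 103 and 103 TPM in the SK-Hep1 libraries, against 0, 0.14 and 0 TPM in the SKBR3-labelled libraries. The class I light chain B2M was high in both lines, at 2204 TPM in SK-Hep1 and 419 TPM in the SKBR3-labelled libraries. HLA-C, a class I heavy chain, averaged 236 TPM in SK-Hep1 and 227 TPM in the SKBR3-labelled libraries and did not pass (adjusted p = 0.206). Alleles of HLA genes differ between people and share reads, so levels of HLA genes are uncertain.

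Interferon-stimulated genes encode antiviral proteins that are switched on when interferon signals through STAT factors. Of 34 tested, 29 were higher and 5 lower in SK-Hep1, with a median of 3.10. IFI16, a sensor of foreign DNA, had 81.2, 79.7 and 81.8 TPM in the SK-Hep1 libraries and was listed at 0 in all 3 SKBR3-labelled libraries. IFIT3, a partner of the RNA-binding protein IFIT1, had 60.2, 55.9 and 68.6 TPM in the SK-Hep1 libraries, against 0.28, 0.18 and 0.11 TPM in the SKBR3-labelled libraries (5.71, SE 0.11, adjusted p = 2.41e-08). BST2 (tetherin), which holds budding virus at the membrane, had 71.6, 70.3 and 83.7 TPM in the SK-Hep1 libraries, against 2.84, 2.81 and 3.52 TPM in the SKBR3-labelled libraries (4.23, SE 0.10, adjusted p = 7.51e-08). IFIH1, the RNA sensor MDA5, had 19.6, 18.1 and 21.6 TPM in the SK-Hep1 libraries, against 0.27, 0.06 and 0.22 TPM in the SKBR3-labelled libraries. OAS3, a synthase that activates RNase L, had 22.7, 23.8 and 22.3 TPM in the SK-Hep1 libraries, against 0.25, 0.45 and 0.51 TPM in the SKBR3-labelled libraries. IFITM3 averaged 1753 TPM in SK-Hep1 and 17.2 TPM in the SKBR3-labelled libraries, with reads that can be shared with its near-identical neighbours.

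Promoters of these genes were read for the core of the interferon-stimulated response element, GAAANNGAAA, on both strands of the 250 bases before the annotated start (RefSeq, GRCh38.p14), with overlapping copies counted. Of 34 tested interferon-stimulated genes 26 had a promoter in the table and 16 of these (61.5%) held the letters. Among the 14 with a promoter and at least an 8-fold higher level in SK-Hep1, 8 (57.1%) held them. The share was 3.71% over all 27305 genes with a promoter, 3.29% over tested genes, 9.24% over the 433 genes at least 8-fold higher in SK-Hep1 and 2.82% over the 248 at least 8-fold lower. The letters alone are a description and not a site of binding. The 4 promoters below belong to genes whose levels are given above and show the letters (or their reverse complement) in capitals, 5′ to 3′ on the strand of the gene: IFIT3 at chr10:89327747-89327996 on the plus strand with 2 copies, BST2 at chr19:17405631-17405880 on the minus strand with 2 overlapping copies, IFIH1 at chr2:162318685-162318934 on the minus strand with 3 copies, and OAS3 at chr12:112938224-112938473 on the plus strand with 2 copies.
IFIT3: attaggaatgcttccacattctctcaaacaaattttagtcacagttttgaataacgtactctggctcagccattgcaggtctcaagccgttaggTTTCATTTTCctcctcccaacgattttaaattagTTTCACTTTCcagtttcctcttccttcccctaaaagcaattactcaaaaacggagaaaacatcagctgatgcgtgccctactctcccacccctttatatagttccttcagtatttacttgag
BST2: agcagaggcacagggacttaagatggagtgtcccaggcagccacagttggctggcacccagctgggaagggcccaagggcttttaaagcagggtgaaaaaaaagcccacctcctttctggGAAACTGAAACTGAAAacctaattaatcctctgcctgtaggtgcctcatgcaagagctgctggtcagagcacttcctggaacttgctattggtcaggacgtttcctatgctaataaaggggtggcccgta
IFIH1: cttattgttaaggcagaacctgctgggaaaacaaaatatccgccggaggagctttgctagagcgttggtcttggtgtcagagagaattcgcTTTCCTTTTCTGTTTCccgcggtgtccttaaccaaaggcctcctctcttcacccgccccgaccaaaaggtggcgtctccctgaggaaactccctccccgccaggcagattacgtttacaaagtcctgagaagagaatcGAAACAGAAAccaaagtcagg
OAS3: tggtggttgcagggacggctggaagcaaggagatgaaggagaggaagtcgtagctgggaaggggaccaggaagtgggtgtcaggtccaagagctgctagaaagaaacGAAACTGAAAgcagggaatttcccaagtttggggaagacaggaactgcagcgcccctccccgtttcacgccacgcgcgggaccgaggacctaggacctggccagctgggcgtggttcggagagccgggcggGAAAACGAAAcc

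The libraries labelled SKBR3 expressed transcription factors and structural genes of several lineages other than breast. All 13 tested glial and neural progenitor genes were lower in SK-Hep1, each by at least 2-fold. The summed level of the listed genes was 8.86 to 12.4 TPM in SK-Hep1 and 190.6 to 204.9 TPM in the SKBR3-labelled libraries. Of the 25 listed genes, 1 reached 1 TPM in every SK-Hep1 library and 14 did in every SKBR3-labelled library. The filter on the 6-library mean thus favoured this direction, and the count of tested genes is not separate support for it. SLC1A3, a glutamate transporter of glia, was listed at 0 in all 3 SK-Hep1 libraries, against 27.7, 31.2 and 25.4 TPM in the SKBR3-labelled libraries. MSI1, an RNA-binding protein of neural stem cells, had 0.20, 0.26 and 0.16 TPM in the SK-Hep1 libraries, against 27.3, 22.5 and 26.9 TPM in the SKBR3-labelled libraries. The homeobox factor PAX6, of eye and brain, had 1.73, 0.84 and 1.35 TPM in the SK-Hep1 libraries, against 26.5, 25.9 and 24.9 TPM in the SKBR3-labelled libraries. EN2, of the midbrain and hindbrain, averaged 0.42 TPM in SK-Hep1 and 28.3 TPM in the SKBR3-labelled libraries. SOX2, of neural and pluripotent cells, averaged 0.017 TPM in SK-Hep1 and 5.71 TPM in the SKBR3-labelled libraries. NES, the filament nestin, averaged 0.35 TPM in SK-Hep1 and 3.79 TPM in the SKBR3-labelled libraries. With siGCDH PAX6 averaged 0.77 TPM in SK-Hep1 and 33.3 TPM in the SKBR3-labelled libraries. Of the 25 listed genes 2 were listed at 0 in the SKBR3-labelled libraries and 13 in SK-Hep1. Expression of this list was not particular to the SKBR3-labelled libraries. In A375 libraries of the same kit 13 of the 25 genes reached 1 TPM in every library. Their summed level there was 99.9 to 112 TPM over the list, and SLC1A3 averaged 11.8 TPM.

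Neuronal and neuroendocrine genes were mixed: of 23 tested, 17 were lower and 6 higher in SK-Hep1. The neurofilament gene NEFM was listed at 0 in all 3 SK-Hep1 libraries, against 21.8, 24.01 and 29 TPM in the SKBR3-labelled libraries. Its partner NEFL was listed at 0 in all 3 SK-Hep1 libraries, against 21.99, 17.5 and 18.2 TPM in the SKBR3-labelled libraries. HAND1, a factor of heart and sympathetic neurons, was listed at 0 in all 3 SK-Hep1 libraries, against 23.4, 20.6 and 22.7 TPM in the SKBR3-labelled libraries. The sensory neuron factor POU4F1 averaged 4.87 TPM in SK-Hep1 and 34.9 TPM in the SKBR3-labelled libraries. GATA2, of blood and nerve cells, averaged 3.16 TPM in SK-Hep1 and 24.3 TPM in the SKBR3-labelled libraries. Neuronal tubulin TUBB3 was higher in SK-Hep1 instead (203 TPM in SK-Hep1 and 7.91 TPM in the SKBR3-labelled libraries). UCHL1, a neuronal deubiquitinase, was high in both at 233 TPM in SK-Hep1 and 293 TPM in the SKBR3-labelled libraries.

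Kidney and urogenital genes were lower in SK-Hep1 in 12 of 14 cases and higher in 2. SIX2, a factor of kidney progenitor cells, had 0.46, 0.24 and 0.64 TPM in the SK-Hep1 libraries, against 20.3, 19.5 and 19.1 TPM in the SKBR3-labelled libraries. EYA1, its partner in kidney formation, had 0.04, 0 and 0 TPM in the SK-Hep1 libraries, against 10.4, 10.03 and 7.96 TPM in the SKBR3-labelled libraries. EMX2, a factor of brain and urogenital tract, was listed at 0 in all 3 SK-Hep1 libraries, against 7.96, 8.5 and 7.62 TPM in the SKBR3-labelled libraries. All 3 factors stayed below 1 TPM in each SK-Hep1 library and above 7 TPM in each SKBR3-labelled library. ASS1, the urea cycle enzyme argininosuccinate synthase, averaged 7.79 TPM in SK-Hep1 and 61.7 TPM in the SKBR3-labelled libraries. AMH, anti-Müllerian hormone, averaged 14.2 TPM in SK-Hep1 and 48.6 TPM in the SKBR3-labelled libraries.

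Smaller lineage lists were mixed and held few tested genes, to be read against 28.9% higher and 50.5% lower over all tested genes. Of 6 tested genes of gut, lung, prostate, thyroid and pancreas 4 were lower and 2 higher in SK-Hep1. That list summed to 33.5 to 36.8 TPM in SK-Hep1 and 76.5 to 79.7 TPM in the SKBR3-labelled libraries. CDX2, the intestinal homeobox factor, was listed at 0 in all 3 SK-Hep1 libraries, against 29.3, 21.3 and 29.1 TPM in the SKBR3-labelled libraries. NKX2-1, of lung and thyroid, was listed at 0 in all 3 SK-Hep1 libraries, against 4.65, 3.82 and 3.95 TPM in the SKBR3-labelled libraries. Of 8 tested muscle genes 5 were lower and 1 higher. The muscle list summed to more in SK-Hep1, 353 to 368 TPM against 112 to 122 TPM in the SKBR3-labelled libraries. NKX2-5, of heart, averaged 4.82 TPM in SK-Hep1 and 27.6 TPM in the SKBR3-labelled libraries. The slow muscle troponin TNNT1 ran the other way at 344 TPM in SK-Hep1 and 55.6 TPM in the SKBR3-labelled libraries. Of 8 tested cartilage and bone genes 3 were lower and 2 higher. This list also summed to more in SK-Hep1, 65.95 to 77.05 TPM against 39.43 to 42.26 TPM in the SKBR3-labelled libraries. The cartilage collagen COL2A1 was listed at 0 in SK-Hep1 and averaged 6.41 TPM in the SKBR3-labelled libraries, while SOX9, which activates it, was higher in SK-Hep1 (34.1 TPM in SK-Hep1 and 5.16 TPM in the SKBR3-labelled libraries).

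Of 14 tested melanocyte genes 8 were lower and 5 higher in SK-Hep1, the share of lower genes being close to the 50.5% of all tested genes. PAX3, a neural crest factor, was listed at 0 in all 3 SK-Hep1 libraries, against 7.56, 6.14 and 9.62 TPM in the SKBR3-labelled libraries. MITF, the melanocyte master factor, averaged 1.21 TPM in SK-Hep1 and 5.5 TPM in the SKBR3-labelled libraries. RAB38, which carries cargo to melanosomes, ran the other way at 13.7 TPM in SK-Hep1 and 1.21 TPM in the SKBR3-labelled libraries, as did MC1R, the melanocortin receptor, at 5.57 TPM in SK-Hep1 and 2.87 TPM in the SKBR3-labelled libraries. The melanosome gene MLANA stayed below 0.3 TPM in all 6 libraries. Of 15 tested genes of neural crest and dedifferentiated melanoma, 8 were higher and 6 lower in SK-Hep1. The adhesion molecule L1CAM averaged 324 TPM in SK-Hep1 and 0.60 TPM in the SKBR3-labelled libraries. MSX1, a neural crest homeobox factor, averaged 1.6 TPM in SK-Hep1 and 34.1 TPM in the SKBR3-labelled libraries. Of 9 tested blood and immune genes 4 were higher and 5 lower, a set that includes CD74, already described. RAC2, the blood cell form of the RAC switch, averaged 70.6 TPM in SK-Hep1 and 0.29 TPM in the SKBR3-labelled libraries. HBA1, alpha globin, was listed at 0 in SK-Hep1 and averaged 11.9 TPM in the SKBR3-labelled libraries, but shares reads with its copy HBA2 and is uncertain.

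Fetal genes separated the lines gene by gene. Of 12 tested pluripotency and oncofetal genes 8 were higher and 4 lower in SK-Hep1. LIN28B, an RNA-binding protein that blocks let-7 maturation, was listed at 0 in all 3 SK-Hep1 libraries, against 44.1, 47.95 and 48.8 TPM in the SKBR3-labelled libraries. PLAGL1, an imprinted zinc finger factor, was listed at 0 in all 3 SK-Hep1 libraries, against 44.5, 44.3 and 48.4 TPM in the SKBR3-labelled libraries. GPC3, a glypican of fetal liver and liver tumours, was listed at 0 in all 3 SK-Hep1 libraries, against 51.5, 52.2 and 51.2 TPM in the SKBR3-labelled libraries. The imprinted genes PEG10 and MEST ran the other way, at 134 TPM in SK-Hep1 and 0.54 TPM in the SKBR3-labelled libraries for PEG10 and 82.2 TPM in SK-Hep1 and 0.22 TPM in the SKBR3-labelled libraries for MEST. With siGCDH PEG10 averaged 18.9 TPM in SK-Hep1 and 0.19 TPM in the SKBR3-labelled libraries. HMGA1, a chromatin protein, was high in both, at 1074 TPM in SK-Hep1 and 327 TPM in the SKBR3-labelled libraries.

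HOX genes record position along the body axis and were expressed differently cluster by cluster. Of 32 tested genes of the 4 clusters 25 were lower and 5 higher in SK-Hep1, with a median of -1.47. In the HOXD cluster all 5 tested HOXD genes were lower in SK-Hep1: HOXD13 had 1.13, 1.34 and 1.74 TPM in the SK-Hep1 libraries, against 53.1, 52.2 and 49.7 TPM in the SKBR3-labelled libraries, and the neighbours HOXD8, HOXD9, HOXD10 and HOXD11 were each below 1 TPM in all 3 SK-Hep1 libraries. With siGCDH HOXD13 averaged 1.97 TPM in SK-Hep1 and 34.3 TPM in the SKBR3-labelled libraries. In the HOXA cluster HOXA9 had 0.60, 0 and 0.23 TPM in the SK-Hep1 libraries, against 54.7, 56.3 and 52.03 TPM in the SKBR3-labelled libraries. HOXA5 averaged 1.92 TPM in SK-Hep1 and 36.3 TPM in the SKBR3-labelled libraries, while HOXA4 did not pass (5.71 TPM in SK-Hep1 and 4.98 TPM in the SKBR3-labelled libraries, adjusted p = 0.261). HOTAIRM1, a long non-coding RNA of the HOXA cluster, had 0, 0.22 and 0 TPM in the SK-Hep1 libraries, against 64.1, 72.6 and 76.2 TPM in the SKBR3-labelled libraries. HOTAIR, of the HOXC cluster, was listed at 0 in all 3 SK-Hep1 libraries, against 6.87, 7.91 and 8.13 TPM in the SKBR3-labelled libraries. HOXB7 was an exception and had 117, 122 and 128 TPM in the SK-Hep1 libraries, against 22.6, 24.5 and 21 TPM in the SKBR3-labelled libraries (2.38, SE 0.07, adjusted p = 1.52e-07). HOXC10 averaged 47.7 TPM in SK-Hep1 and 15.9 TPM in the SKBR3-labelled libraries, whereas HOXC4 averaged 4.33 TPM in SK-Hep1 and 22.3 TPM in the SKBR3-labelled libraries.

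**Figure D4:**
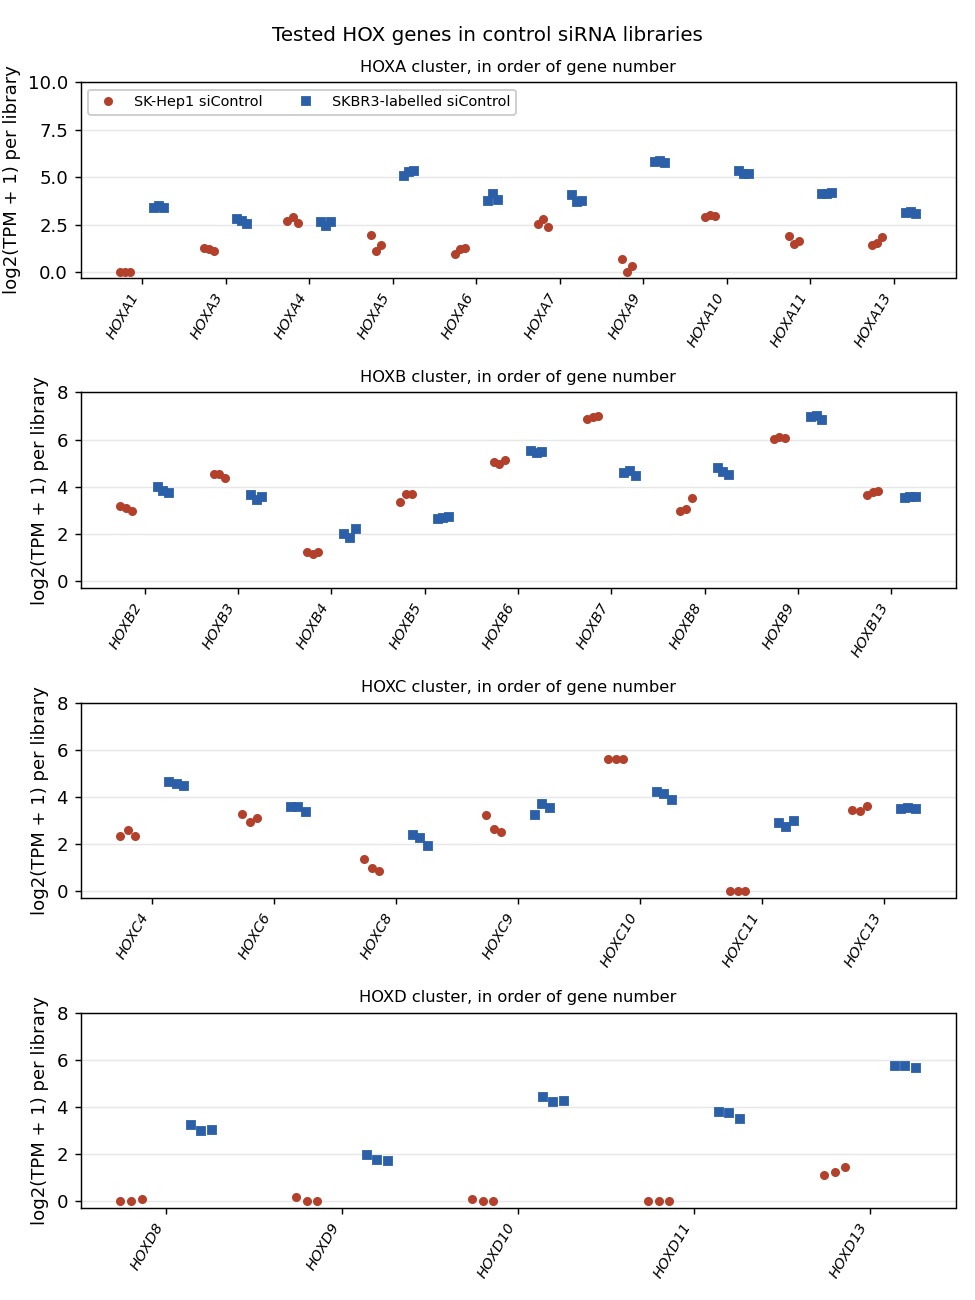
Level of the tested HOX genes in each control siRNA library, as log2(TPM + 1), with 1 panel per cluster, genes in order of their number, and SK-Hep1 circles left of the SKBR3-labelled squares. All HOXD circles lie at or near the bottom and below the squares, and HOXB7 and HOXC10 show the circles above the squares.

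Developmental signalling genes also divided between the lines. Of 34 tested WNT and BMP genes 11 were higher and 20 lower in SK-Hep1, and of 25 tested Notch and Hippo genes 12 were higher and 11 lower. The WNT and BMP counts were near the 28.9% and 50.5% of all tested genes. SFRP1, a secreted WNT inhibitor, had 692, 682 and 703 TPM in the SK-Hep1 libraries, against 0.35, 0.10 and 0 TPM in the SKBR3-labelled libraries. DKK1, another, averaged 546 TPM in SK-Hep1 and 2.11 TPM in the SKBR3-labelled libraries. The ligand WNT5B averaged 241 TPM in SK-Hep1 and 4.87 TPM in the SKBR3-labelled libraries. ID4, an inhibitor of basic helix-loop-helix factors that BMP induces, was listed at 0 in all 3 SK-Hep1 libraries, against 106, 103 and 107 TPM in the SKBR3-labelled libraries. ID2 had 6.3, 6.29 and 8.3 TPM in the SK-Hep1 libraries, against 191, 187 and 175 TPM in the SKBR3-labelled libraries. The secreted factor BMP7 was listed at 0 in all 3 SK-Hep1 libraries, against 25.4, 22.6 and 20.3 TPM in the SKBR3-labelled libraries. ID4, ID2 and BMP7 were thus low in every SK-Hep1 library and high in every SKBR3-labelled library. HEY1, a Notch target, had 0.18, 0.47 and 0.26 TPM in the SK-Hep1 libraries, against 155, 154 and 157 TPM in the SKBR3-labelled libraries. NRARP, another Notch target, averaged 1.25 TPM in SK-Hep1 and 38.6 TPM in the SKBR3-labelled libraries. The Hippo pathway targets CCN1 and AMOTL2 were higher in SK-Hep1, with CCN1 at 544 TPM in SK-Hep1 and 7.62 TPM in the SKBR3-labelled libraries and AMOTL2 at 119.6 TPM in SK-Hep1 and 5.53 TPM in the SKBR3-labelled libraries.

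Genes of the cell cycle were lower in SK-Hep1. Of 34 tested proliferation genes 31 were lower and none was higher, with a median of -1.08, and 28 were lower after median scaling. PCNA, the sliding clamp of DNA polymerase, had 109.8, 99.8 and 104 TPM in the SK-Hep1 libraries, against 528, 569 and 519 TPM in the SKBR3-labelled libraries (-2.35, SE 0.05, adjusted p = 5.11e-08). CDC45, a helicase subunit, averaged 18.4 TPM in SK-Hep1 and 136 TPM in the SKBR3-labelled libraries. Of 20 cyclins and cell cycle inhibitors 13 were lower and 4 higher: CCND1 (cyclin D1) averaged 118 TPM in SK-Hep1 and 22.6 TPM in the SKBR3-labelled libraries. CCND2 averaged 0.057 TPM in SK-Hep1 and 11.04 TPM in the SKBR3-labelled libraries. CDKN1A, the inhibitor p21 and a p53 target, averaged 86.5 TPM in SK-Hep1 and 18.6 TPM in the SKBR3-labelled libraries. Of 27 p53 targets 16 were higher and 6 lower in SK-Hep1. The secreted factor GDF15 had 56.9, 59.3 and 57.9 TPM in the SK-Hep1 libraries, against 0.29, 0.29 and 0.26 TPM in the SKBR3-labelled libraries. SESN2, a stress sensor, ran the other way at 8.103 TPM in SK-Hep1 and 47.9 TPM in the SKBR3-labelled libraries.

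CDKN2A belonged to a block of neighbouring genes that were at or near 0 together in SK-Hep1. On chromosome 9 (hg38, positions 21802543 to 23826337) MTAP, CDKN2A, CDKN2B and ELAVL2 were next to each other among the tested coding genes, and none of the 4 exceeded 0.19 TPM in any SK-Hep1 library. MTAP, an enzyme that salvages methionine, had 0.02, 0 and 0 TPM in the SK-Hep1 libraries, against 60.9, 59.4 and 60.8 TPM in the SKBR3-labelled libraries. CDKN2B, the inhibitor p15, was listed at 0 in all 3 SK-Hep1 libraries, against 7.29, 7.17 and 6.27 TPM in the SKBR3-labelled libraries. ELAVL2, a neuronal RNA-binding protein, had 0.19, 0 and 0 TPM in the SK-Hep1 libraries, against 7.76, 7.61 and 8.63 TPM in the SKBR3-labelled libraries. Just before the block KLHL9 had 12.4, 10.98 and 13.8 TPM in the SK-Hep1 libraries, against 32.3, 34.9 and 34.01 TPM in the SKBR3-labelled libraries. FOCAD had 10.9, 12.1 and 12.3 TPM in the SK-Hep1 libraries, against 29.8, 27.4 and 30.2 TPM in the SKBR3-labelled libraries. With siGCDH none of the 4 averaged above 0.15 TPM in SK-Hep1. Chromosome 9 had the lowest median difference of the 23 chromosomes compared, -0.95 over 503 tested genes, with 369 lower and 74 higher. DNA copy number was not measured.

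Runs of at least 5 neighbouring tested coding genes that were all below 1 TPM in each library of one line were then counted. Tested genes had to average 1 TPM over the 6 libraries, so every gene of a run averaged above 1 TPM in the other line by construction. Genes silent in both lines were skipped, such as GJB6 within the chromosome 13 run, so neighbours here are neighbours among tested genes. The share of tested coding genes below 1 TPM in all 3 libraries was 6.44% (821 of 12744) in SK-Hep1 and 4.79% (610) in the SKBR3-labelled libraries. SK-Hep1 had 2 such runs. The first held 11 genes on chromosome 13 (19633681 to 20903048), from MPHOSPH8 to XPO4. Of these MPHOSPH8, a subunit of the HUSH silencing complex, was listed at 0 in all 3 SK-Hep1 libraries, against 21.5, 24.5 and 26.5 TPM in the SKBR3-labelled libraries. PSPC1, a paraspeckle protein, had 0.06, 0 and 0 TPM in the SK-Hep1 libraries, against 53.5, 52.5 and 52.9 TPM in the SKBR3-labelled libraries. ZMYM2, a zinc finger corepressor, was listed at 0 in all 3 SK-Hep1 libraries, against 28.6, 28.02 and 28.3 TPM in the SKBR3-labelled libraries. The highest value of any of the 11 genes in any SK-Hep1 library was 0.06 TPM, and 9 of them were listed at 0 in all 3. With siGCDH the highest SK-Hep1 mean of the 11 was 0.037 TPM. The next gene along, LATS2, a Hippo kinase, averaged 21.8 ± 1.02 TPM in SK-Hep1 and 4.06 ± 0.093 TPM in the SKBR3-labelled libraries and was higher in SK-Hep1. SAP18, after it, averaged 179 ± 10.9 TPM in SK-Hep1 and 270.2 ± 19.5 TPM in the SKBR3-labelled libraries.

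The second run lay on chromosome 19 (52369917 to 53458261) and held 11 zinc finger genes, from ZNF880 to ZNF761, all listed at 0 in all 3 SK-Hep1 libraries. They averaged 2.25 to 5.24 TPM in the SKBR3-labelled libraries and 3.54 to 9.67 TPM in A375. ZNF761 was listed at 0 in all 3 SK-Hep1 libraries, against 5.84, 4.71 and 5.16 TPM in the SKBR3-labelled libraries. ZNF83 was listed at 0 in all 3 SK-Hep1 libraries, against 4.7, 4.81 and 6.1 TPM in the SKBR3-labelled libraries. Zinc finger genes are a repeated family that shares reads, so the level of a single member is uncertain. In the SKBR3-labelled libraries 6 runs were found. Besides the chemokine run these were 6 protocadherin beta and 5 protocadherin gamma genes on chromosome 5, 6 near-identical GAGE genes on the X chromosome that cannot be told apart by reads, 5 keratin and keratin-associated genes on chromosome 17 that include KRT19, and 5 genes on chromosome 18 from SERPINB7 to DSEL. In the last of these SERPINB2, an inhibitor of plasminogen activators, had 40.8, 35.3 and 34.3 TPM in the SK-Hep1 libraries and was listed at 0 in all 3 SKBR3-labelled libraries. KRTAP2-3, a keratin-associated protein gene, had 126, 131 and 137 TPM in the SK-Hep1 libraries and was listed at 0 in all 3 SKBR3-labelled libraries. PCDHB6, a protocadherin of neuronal contacts, had 11.9, 10.2 and 11.4 TPM in the SK-Hep1 libraries, against 0.07, 0 and 0.04 TPM in the SKBR3-labelled libraries. Of the 6 GAGE genes 4 were called. GAGE12J was not, with 68.5, 0 and 0 TPM in the SK-Hep1 libraries, so its mean rested on a single library.

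**Figure D5:**
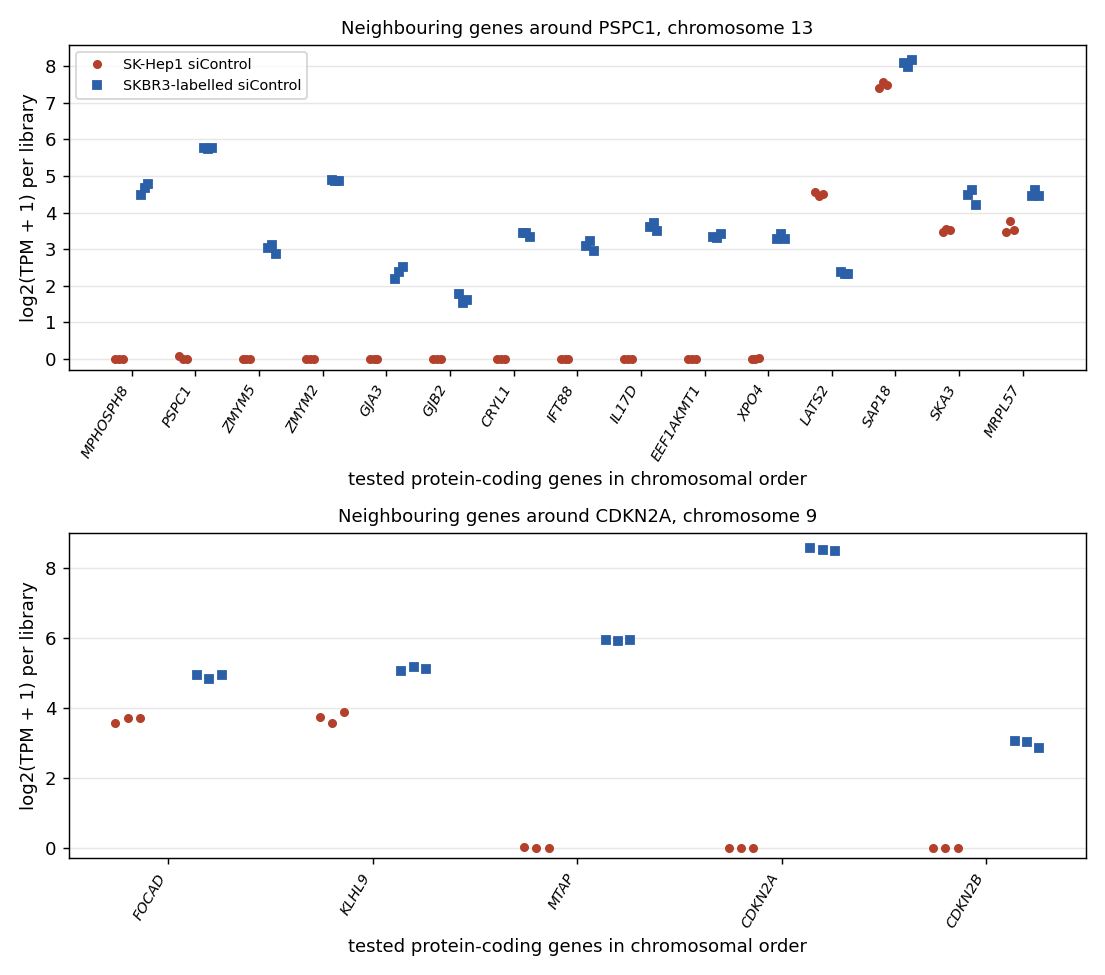
Level of neighbouring tested protein-coding genes around PSPC1 (above) and CDKN2A (below) in each control siRNA library, as log2(TPM + 1), in chromosomal order, with SK-Hep1 circles left of the SKBR3-labelled squares. The circles lie at or near 0 from MPHOSPH8 to XPO4 and from MTAP to CDKN2B, and lie well above 0 for LATS2, SAP18, KLHL9 and FOCAD.

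The gene targeted in the series started from different levels. GCDH (hg38 chromosome 19, 12891026 to 12914207, plus strand) had 9.79, 9.46 and 8.97 TPM in the SK-Hep1 libraries, against 22.03, 22.7 and 22.8 TPM in the SKBR3-labelled libraries (-1.17, SE 0.07, adjusted p = 3.37e-06). The groups did not overlap, which in an exact permutation test, two-sided, is p = 0.1 and the smallest p that 3 against 3 libraries allow. With siGCDH it averaged 2.76 TPM in SK-Hep1 and 5.94 TPM in the SKBR3-labelled libraries, so that GCDH stayed lower in SK-Hep1 after knockdown. Of 26 tested genes of lysine and tryptophan breakdown, 18 were lower and 5 higher in SK-Hep1, with a median of -0.61, and 15 were lower after median scaling. DHTKD1, a subunit of the complex that makes the substrate of GCDH, had 15.4, 19.4 and 12.1 TPM in the SK-Hep1 libraries, against 53.7, 56 and 49.3 TPM in the SKBR3-labelled libraries. ETFDH, which passes electrons from GCDH to the respiratory chain, had 13.4, 14.5 and 15.3 TPM in the SK-Hep1 libraries, against 28.7, 37.3 and 34.2 TPM in the SKBR3-labelled libraries. HADH, a later step of acyl-CoA breakdown, averaged 37.99 TPM in SK-Hep1 and 110.4 TPM in the SKBR3-labelled libraries. AASS, the first enzyme of lysine breakdown, ran the other way at 22.2 TPM in SK-Hep1 and 13.9 TPM in the SKBR3-labelled libraries. The enzymes KYNU and KMO of the kynurenine branch of tryptophan breakdown were also higher in SK-Hep1, with KYNU averaging 13.1 TPM in SK-Hep1 and 0.07 TPM in the SKBR3-labelled libraries and KMO averaging 3.53 TPM in SK-Hep1 and being listed at 0 in the SKBR3-labelled libraries.

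RNA of NFE2L2, the gene of the antioxidant activator NRF2, was higher in SK-Hep1, and NRF2 protein and activity were not measured. NFE2L2 had 76.1, 81.9 and 81.3 TPM in the SK-Hep1 libraries, against 36.6, 38.2 and 37.1 TPM in the SKBR3-labelled libraries (1.08, SE 0.05, adjusted p = 1.35e-06). KEAP1, which marks NRF2 for degradation, averaged 27.3 TPM in SK-Hep1 and 49.96 TPM in the SKBR3-labelled libraries. SQSTM1, an autophagy receptor that binds KEAP1, averaged 418 TPM in SK-Hep1 and 75.2 TPM in the SKBR3-labelled libraries. Of 10 genes of NRF2 and its regulators 6 were higher and 4 lower. The 34 tested NRF2 targets divided, with 17 higher and 13 lower. MGST1, a membrane glutathione transferase, had 192, 207 and 216 TPM in the SK-Hep1 libraries, against 7.34, 8.39 and 9.78 TPM in the SKBR3-labelled libraries. TXNRD1, thioredoxin reductase, averaged 696 TPM in SK-Hep1 and 113 TPM in the SKBR3-labelled libraries. FTL, ferritin light chain, averaged 3435 TPM in SK-Hep1 and 551 TPM in the SKBR3-labelled libraries. NQO1, a quinone reductase often used as an NRF2 readout, had 0.60, 0.15 and 0 TPM in the SK-Hep1 libraries, against 4.34, 7.16 and 7.81 TPM in the SKBR3-labelled libraries. GSR, glutathione reductase, averaged 21.6 TPM in SK-Hep1 and 49.5 TPM in the SKBR3-labelled libraries. GCLM, a subunit of the enzyme that starts glutathione synthesis, averaged 12.6 TPM in SK-Hep1 and 21.2 TPM in the SKBR3-labelled libraries.

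Transcripts for mitochondrial respiration differed in siControl wells by genome of origin. All 13 tested mitochondrially encoded genes were higher in SK-Hep1, with a median of 1.55, whereas of 42 nuclear genes of the respiratory chain 35 were lower and 2 higher, with a median of -0.50. MT-CO1, a subunit of cytochrome c oxidase, had 7045, 7448 and 7743 TPM in the SK-Hep1 libraries, against 2141, 2193 and 2041 TPM in the SKBR3-labelled libraries (1.80, SE 0.04, adjusted p = 6.13e-08). The complex I gene NDUFB10 had 127, 135 and 131 TPM in the SK-Hep1 libraries, against 369, 359 and 365 TPM in the SKBR3-labelled libraries (-1.47, SE 0.04, adjusted p = 8.16e-08). Over all tested genes the median was -0.34. NDUFB10 was among 5 of the 42 nuclear genes that were at least 2-fold lower, against 25.5% of all tested genes. In siGCDH wells the medians of the same differences were 0.10 for mitochondrially encoded genes and -0.20 for the nuclear genes, both above the -0.47 of all genes tested there, and the change from siControl wells was not tested. MT-CO1 averaged 7611 TPM in SK-Hep1 and 4140.0 TPM in the SKBR3-labelled libraries there.

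Of 32 tested genes of glycolysis and hypoxia 18 were higher and 12 lower in SK-Hep1. The lactate exporter SLC16A3 averaged 236 TPM in SK-Hep1 and 0.81 TPM in the SKBR3-labelled libraries. EGLN3, an oxygen sensor, was listed at 0 in all 3 SK-Hep1 libraries, against 9.31, 10.3 and 11.6 TPM in the SKBR3-labelled libraries. Of 29 genes of sterol and fatty acid synthesis 19 were higher and 8 lower. SREBF1, the activator of fatty acid synthesis genes, had 347, 357 and 358 TPM in the SK-Hep1 libraries, against 22.4, 22.9 and 25.6 TPM in the SKBR3-labelled libraries (3.85, SE 0.06, adjusted p = 9.47e-09). The desaturase SCD averaged 798 TPM in SK-Hep1 and 227 TPM in the SKBR3-labelled libraries. With siGCDH SCD averaged 197 TPM in SK-Hep1 and 82.7 TPM in the SKBR3-labelled libraries.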

How the data were processed

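Polyadenylated RNA of siControl wells of SK-Hep1 and of cells labelled SKBR3 was sequenced, 3 libraries each. The authors deposited TPM values per gene and library. The submitters' processing notes name RSEM 1.3.1, STAR 2.7.0d and cutadapt 2.3 together with hg38. RSEM divides reads among near-identical genes, which makes their levels uncertain. Neither strand setting nor annotation version is given in the sources used here, so overlapping and antisense genes may share reads. Symbols were matched by gene ID to a name table, and positions come from GENCODE 29.

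All genes averaging 1 TPM or more over the 6 libraries were tested on log2(TPM + 1), SK-Hep1 minus SKBR3-labelled, with limma 3.58.1 (lmFit, eBayes with trend) in R 4.3.3, with two-sided p-values and Benjamini-Hochberg adjustment across the tested genes, and a gene was called at an adjusted p under 0.05. The same fit was made on the siGCDH wells. Alternatives were pseudocounts of 0.1 and 5, no filter or one at 5 TPM, quantile normalization, median scaling, eBayes without trend or robust, a replicate block, a joint fit of 18 libraries, and leaving out each library. Fits were tested on simulated data. Tables and figures were made in Python 3.11.15 with pandas 2.3.3, numpy 2.4.6, scipy 1.17.1 and matplotlib 3.10.9.

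Genes and the 39 lists were chosen with earlier results of these data known. The rule for named genes took a fixed panel of lineage genes, the 15 largest differences in each direction among called genes with at least 5 TPM and no overlap, and up to 4 members of each list with the largest difference or, for lineage lists, the highest level in the SKBR3-labelled libraries. Other list members, genes of chromosomal runs and genes with a printed promoter were named after their values were seen. Some genes taken by the rule are not reported here.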

Additional observations from a re-analysis of the deposited data

Results flagged for a closer look

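SNAI2 and SOX18 had opposite differences in the 2 sets of wells, with all 3 libraries of one line above all 3 of the other in each set, and the change of direction was not tested. SNAI2, a factor that represses epithelial genes, was lower in SK-Hep1 in siControl wells (a log2 difference of -0.73), at 34.0 TPM in SK-Hep1 and 57.0 TPM in the SKBR3-labelled libraries, and averaged 39.2 TPM in SK-Hep1 and 30.5 TPM in the SKBR3-labelled libraries with siGCDH. SOX18, an endothelial factor, was higher in SK-Hep1 in siControl wells (a log2 difference of 0.42), at 3.88 TPM in SK-Hep1 and 2.66 TPM in the SKBR3-labelled libraries, and averaged 2.7 TPM in SK-Hep1 and 4.62 TPM in the SKBR3-labelled libraries with siGCDH. The SOX18 call was lost with the replicate block and without SK-Hep1 replicate 1, SKBR3-labelled replicate 1 or SKBR3-labelled replicate 3.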

How the results depend on the processing

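The number of called genes stayed within 1.5 times of 12277 under all 16 alternatives, from 9399 with a filter at 5 TPM to 14373 with no filter. Counts with a size threshold depended on the pseudocount and filter. With a pseudocount of 0.1, 2235 genes were at least 8-fold apart, 1090 higher and 1145 lower in SK-Hep1. With a pseudocount of 5, 3861 were at least 2-fold apart, 2206 of them lower in SK-Hep1, and 319 at least 8-fold, 263 higher and 56 lower. A filter at 5 TPM left 2527 at least 2-fold lower. Smaller pseudocounts widen, and larger ones narrow, differences of low genes by construction. Of 215 tested genes under the naming rule, 207 were called, 5 lost and 7 gained the call under some alternative, and MIEN1 changed sign. MIEN1 (main difference -0.00432) was at 0.066 after quantile normalization and 0.13 after median scaling, and leaving out each library gave -0.036 to 0.048. The cartilage and bone median was 0.10 after median scaling and 0.28 after quantile normalization, which was added for list medians after the data were seen, as was leaving out each siGCDH library (13077 to 13506 genes called). Replicate numbers did not pair the libraries (correlations of deviations -0.018, -0.014 and -0.059; 0 of 3 best with their own number), and with the replicate block 12120 genes were called.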
